A study of Homo sapiens with 4 samples.

Results

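Retained-intron transcripts are annotated transcripts that share a gene's locus and keep intronic sequence that other transcripts of the gene splice out. They were taken here as the entries whose annotation class was retained_intron in the deposited comparisons of beta-catenin RNA immunoprecipitation (RIP) with input RNA. There were 1683 such transcripts among 9880 listed transcripts of HT-29 cells and 2710 among 11943 of CaCo-2 cells. They came from 1328 and 2048 gene names and made up 4017 different transcripts among the 19895 listed over both lines.

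Introns are normally removed while a transcript is still being made or soon after, and a transcript that keeps one is often held in the nucleus or degraded, and is rarely translated into the full protein. Genes for RNA-binding and splicing proteins are known for retaining introns as a way to limit their own output. Beta-catenin, encoded by CTNNB1, is the co-activator of Wnt target genes, a pathway that is overactive in most colon cancers, and it is also a component of cell junctions.

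The study asked which long non-coding RNAs come down with beta-catenin in colon cancer cells. HT-29 and CaCo-2 are established human colon adenocarcinoma lines, and both were untreated. For each RIP library, nuclear lysate was precipitated on protein G beads with a Bethyl antibody to beta-catenin; input libraries had no antibody step, and all were TruSeq RNA libraries. With 1 RIP library and 1 input library per line, 4 libraries in all, no replicate error exists, no transcript was tested here, and statements of higher or lower describe these libraries only.

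Levels are in FPKM, fragments scaled by transcript length and library size. The deposited comparisons hold only transcripts at least 1.5 times higher in the RIP, so the direction was fixed by that selection and a transcript that is missing may be expressed. The lowest retained-intron RIP level was 1.31 FPKM in HT-29 cells and 0.842 FPKM in CaCo-2, so the lines were listed to different depths. The sources used here do not give sequencing depth, strandedness or exon boundaries, and no control precipitation was analysed here. FPKM of overlapping isoforms are estimates from shared reads, so the reads of a kept intron, of the unspliced precursor and of another isoform of the same gene cannot be told apart. Of 11 colon epithelial marker genes, 7 were listed in HT-29 cells and 5 in CaCo-2, and of 9 blood, mesenchymal and endothelial markers 0 were listed in either line.

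A genome of the build used by the authors (hg19) was not used here, so the kept introns themselves are not printed. The sequences that could be attached to members are those of the microRNA genes listed in the same comparisons and lying wholly within the span of a retained-intron transcript on the same strand, of which there were 2, both in CaCo-2. They are shown because they are the regulatory RNAs that these members enclose. Mature sequences are from RefSeq (GRCh38.p14) and run 5′ to 3′, with the seed, bases 2 to 8, which pairs with target messages, in capitals.
hsa-miR-326: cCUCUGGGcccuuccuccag
hsa-miR-15b-5p: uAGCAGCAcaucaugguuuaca
hsa-miR-15b-3p: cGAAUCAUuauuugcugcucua
The gene of miR-326 (MIR326; hg19 chr11:75046136-75046230, minus strand) lies in ARRB1 transcript ENST00000533255, from the gene of beta-arrestin 1, a receptor-signalling adaptor. The ARRB1 transcript was at 2.95 FPKM in the RIP and 0 in the input, and MIR326 at 501 FPKM in the RIP and 0 in the input. The gene of miR-15b (MIR15B; hg19 chr3:160122376-160122473, plus strand) lies in SMC4 transcript ENST00000468653, SMC4 being a condensin subunit. The SMC4 transcript was at 1.02 FPKM in the RIP and 0.298 in the input, and MIR15B at 348 FPKM in the RIP and 0 in the input. The 3 seeds differ from each other. FPKM of so short a feature can rest on very few fragments, and whether the hairpins lie in a kept intron was not analysed here.

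Most members were of low abundance. In HT-29 the median level was 2.10 FPKM in the RIP and 0.564 FPKM in the input, and 57 transcripts reached 10 FPKM in the RIP. In CaCo-2 the medians were 1.49 FPKM in the RIP and 0.528 FPKM in the input, and 19 transcripts reached 10 FPKM. The upper end differed between the lines: the highest RIP level was 174 FPKM in HT-29 cells and 46.5 FPKM in CaCo-2.

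**Figure D1:**
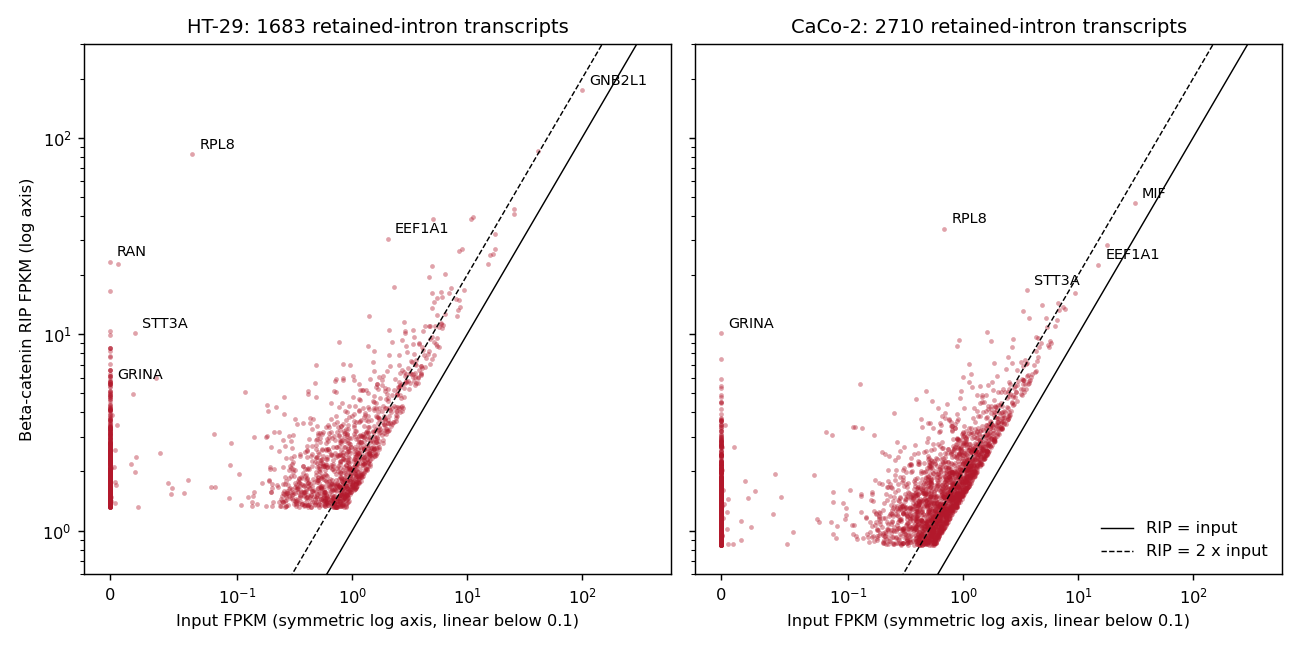
RIP level (vertical, log axis) against input level (horizontal, symmetric log axis) in FPKM for every retained-intron transcript of HT-29 (left) and CaCo-2 (right), 1 point per transcript. Most points lie below 10 FPKM near the listing limit, and the column at 0 holds the 507 and 643 transcripts whose input was listed at 0.

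The size of the difference between RIP and input was expressed as a log2 ratio of the RIP level to the input level, after a pseudocount of 1 FPKM was added to each. This ratio was computed where at least 1 library of the line reached 1 FPKM, and it understates the change of low transcripts. All 1683 HT-29 members and 2291 CaCo-2 members passed, the other 419 of CaCo-2 being below 1 FPKM. Because the RIP was the higher library by selection, members passed through the RIP, so the following counts are descriptions only. In HT-29, 875 of 1683 retained-intron transcripts (52.0%, 95% Wilson interval 49.6 to 54.4) had a RIP level at least 2-fold above input, beside 56.0% of all listed transcripts and 53.2% of protein-coding ones. In CaCo-2, 732 of 2291 (32.0%, 30.1 to 33.9) were, beside 40.8% of all listed transcripts and 42.0% of protein-coding ones. Retained-intron transcripts were thus below the overall share in both lines, by less in HT-29 than in CaCo-2. With this pseudocount, an input of 0 puts any member of 1 FPKM or more in the RIP at 2-fold or above. This fixed 507 of the 875 and 495 of the 732 in advance. Without inputs at 0 the shares were 31.3% in HT-29 and 13.2% in CaCo-2, beside 35.5% and 19.5% of all transcripts. The intervals cover counting error only, and isoforms of a gene share reads.

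Requiring a measured level in both libraries lowered every share. Of 465 HT-29 members with at least 1 FPKM in both RIP and input, 104 (22.4%, 18.8 to 26.4) had a RIP level at least 2-fold above input, beside 25.2% of all transcripts. Of 547 CaCo-2 members, 45 (8.23%, 6.20 to 10.8) were, beside 13.1%. With the RIP at 2 FPKM or more, a floor above both listing limits, 530 of 909 HT-29 members (58.3%) and 296 of 786 CaCo-2 members (37.7%) were at least 2-fold higher, beside 57.8% and 45.1% of all transcripts. On each basis given, the CaCo-2 share of retained-intron transcripts was below that of all transcripts.

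**Figure D2:**
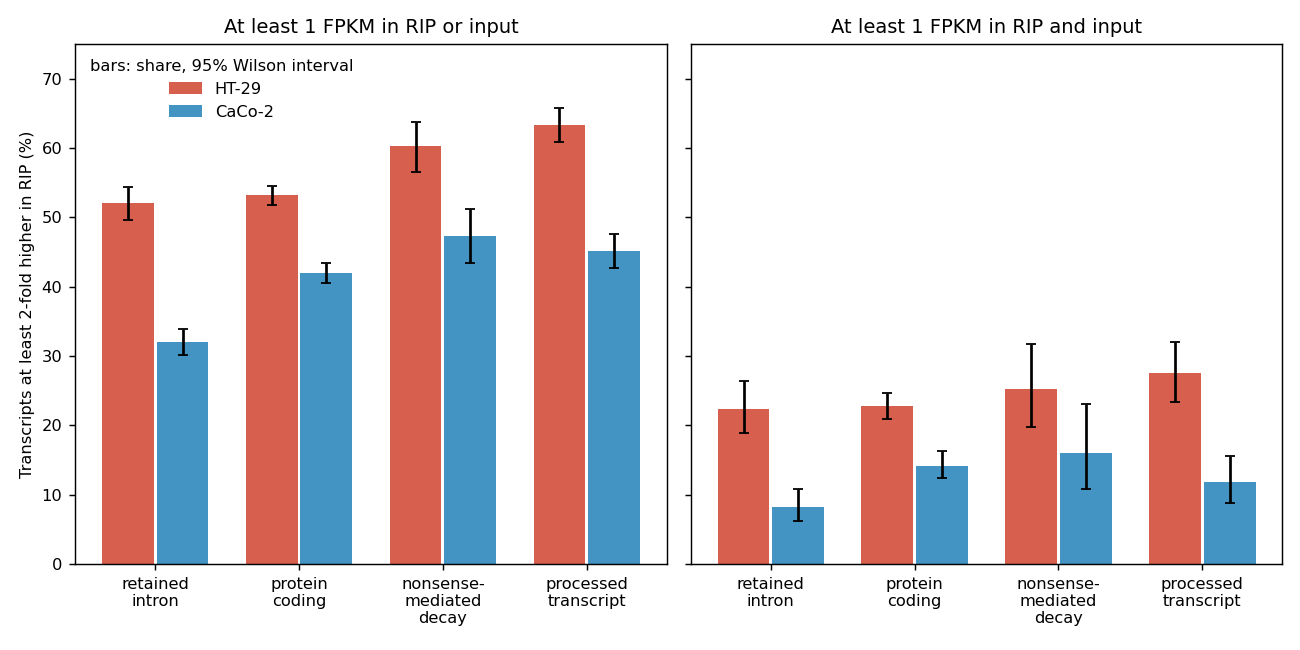
Share of transcripts at least 2-fold higher in the RIP (vertical, percent) for retained-intron transcripts and the 3 other large gene-associated classes, HT-29 and CaCo-2 side by side, with 95% Wilson intervals. Retained-intron transcripts of CaCo-2 had the lowest share of the 4 classes in both panels, 32.0% on the left and 8.23% on the right.

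Retained-intron transcripts made up 17.0% (16.3 to 17.8) of the HT-29 list and 22.7% (21.9 to 23.5) of the CaCo-2 list, while protein-coding transcripts made up 49.6% and 43.0%. With the RIP at 2 FPKM or more the retained-intron shares were 14.5% in HT-29 cells and 19.3% in CaCo-2, so CaCo-2 was the higher line on either basis. As expression outside the lists was not analysed here, neither share is an enrichment over all expressed transcripts.

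Few members had a low q-value in the authors' deposited table, which compared 1 library with 1 library. At a q of 0.05 or below, the authors' deposited table held 6 of 1683 HT-29 members (0.357%), beside 3.08% of all transcripts and 4.53% of protein-coding ones. For CaCo-2 the authors' deposited table held 3 of 2710 (0.111%), beside 2.24% and 4.50%. In HT-29 they included TSN, the RNA- and DNA-binding protein translin (4.88 FPKM in the RIP, 0 in the input, q = 3.5e-05 in the authors' deposited table), and USP30, a mitochondrial deubiquitinase (2.01 and 0 FPKM). Further HT-29 members were CUL9, a cullin (2.07 FPKM in the RIP, 0.673 in the input), the acetyltransferase NAT9 (2.42 and 0 FPKM) and MLST8, an mTOR complex subunit (3.62 and 0 FPKM). In CaCo-2 they were the zinc finger protein ZNF3 (2.04 FPKM in the RIP, 0 in the input, q = 0.000537 in the authors' deposited table), the membrane protein GRINA (10.1 and 0 FPKM) and ZFAND2B, a proteasome-associated protein (2.46 and 0 FPKM). Of the 9 transcripts over both lines, 8 had an input listed at 0, and no transcript passed this q in both lines.

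The input was listed at 0 for 507 HT-29 members (30.1%) and 643 CaCo-2 members (23.7%), and no fold is given for them. Another listed transcript of the same gene had an input above 0 for 300 of the 507 in HT-29 and for 408 of the 643 in CaCo-2, while the remainder had no such transcript in the lists. Of the HT-29 members at 0, 109 were also listed in CaCo-2, and 73 of them had an input above 0 there, up to 5.46 FPKM. A 0 can be a failed assignment of reads among isoforms. Only some of the counts that rest on it are also given without these transcripts, and most counts by gene or gene group include them.

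Among abundant HT-29 members, genes of the translation apparatus stood at the top. GNB2L1 (now RACK1), a ribosome-bound scaffold, had the highest RIP level, 174 FPKM in the RIP against 101 in the input (ENST00000508963, hg19 chr5:180668443-180670903). RPS28 followed with 85.2 FPKM in the RIP and 41.4 in the input (chr19:8386518-8387280). RPL8 had 82.4 FPKM in the RIP and 0.0644 in the input (ENST00000526668, chr8:146015153-146017344). These 3 differ in kind: GNB2L1 and RPS28 were abundant in both libraries, whereas the RPL8 isoform was almost without signal in the input while a protein-coding RPL8 transcript had 68.7 FPKM in the RIP and 38.7 in the input.

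The other HT-29 members of highest RIP level were RPS27A, RPS2 and RPL4, all ribosomal proteins, SQSTM1 (the autophagy receptor p62), KRT18 (an epithelial keratin), EIF3L (a subunit of the initiation factor eIF3) and EEF1A1 (the elongation factor that brings tRNA to the ribosome). EEF1A1 had 30.6 FPKM in the RIP and 2.04 in the input, a log2 ratio of 3.38. EIF3L had 38.5 FPKM in the RIP and 5.01 in the input, a log2 ratio of 2.72. RPS27A, SQSTM1 and KRT18 were below 2-fold, with log2 ratios of 0.75, 0.66 and 0.85.

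By the ratio, the highest HT-29 members after RPL8 were RAN (the GTPase of nuclear transport), ATP6AP1 (a proton pump subunit), HNRNPC (a binder of nascent RNA), IPO7 (an importin), EIF5 (an initiation factor) and STT3A (a catalytic subunit of oligosaccharyltransferase). RAN had 23.3 FPKM in the RIP and 0 in the input. HNRNPC had 16.6 FPKM in the RIP and 0 in the input. ATP6AP1 had 22.6 FPKM in the RIP and 0.00647 in the input. Another isoform of RAN, protein-coding, was at 21.9 FPKM in the RIP and 12.3 in the input, so the gene's RNA was present in the input. Among transcripts of 1 FPKM or more in RIP and input alike, the 10 highest HT-29 ratios belonged to EEF1A1, EIF3L, EIF3J, RPL13A, DANCR, EIF3M, CERS2, EIF3B, ACTB and CCNL1. Of these 10, EEF1A1, EIF3B, EIF3J, EIF3L and EIF3M are translation factors and RPL13A is a ribosomal protein. The 465 HT-29 members with 1 FPKM in both libraries included 11 translation factor and 30 cytosolic ribosomal protein transcripts.

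In CaCo-2 the highest RIP level was that of MIF, a secreted cytokine-like protein, with 46.5 FPKM in the RIP and 31.0 in the input (ENST00000498385, chr22:24236885-24237414), a log2 ratio of 0.57. RPL8, the same isoform as in HT-29, had 34.5 FPKM in the RIP and 0.678 in the input. SPCS2, a signal peptidase subunit, had 28.4 FPKM in the RIP and 18.0 in the input. MIF and SPCS2 were thus abundant without reaching 2-fold, and RPL8 again had the highest ratio in the list (log2 ratio of 4.40, beside 6.29 in HT-29).

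The next CaCo-2 ratios were those of GRINA, STT3A, TCF25, PDCD5, TRIM28, FN1, ZDHHC7, PSMD11 and SEPW1. TRIM28 is a co-repressor of zinc finger proteins, FN1 the matrix protein fibronectin and PSMD11 a proteasome subunit. The TRIM28 transcript had 5.29 FPKM in the RIP and 0 in the input. FN1 had 4.91 FPKM in the RIP and 0 in the input, beside a protein-coding FN1 transcript at 166 FPKM in the RIP and 105 in the input. Among transcripts of 1 FPKM or more in RIP and input alike, the leading members were IPO7 (10.2 FPKM in the RIP, 1.59 in the input), STT3A (16.7 and 3.56 FPKM), the amino acid transporter SLC38A2 (7.04 and 1.11 FPKM) and TUFM, a mitochondrial elongation factor (9.27 and 1.74 FPKM). The remainder were TPM3, SPG7, CSNK1D, DANCR, UCP2 and a second MIF isoform (ENST00000465752, 13.1 FPKM in the RIP and 3.33 in the input). Their log2 ratios ran up to 2.12, for IPO7, so the highest CaCo-2 values were below those of HT-29 on this basis, the tables having been normalised separately.

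The lines shared 376 retained-intron transcripts, from 344 genes, which is 22.3% of the HT-29 list and 13.9% of the CaCo-2 list. Over all classes the shared transcripts were 19.5% and 16.1% of the lists, and for protein-coding transcripts 19.3% and 18.4%. By gene name the overlap was wider, with 680 genes that had a retained-intron transcript in both lines (51.2% of the HT-29 genes and 33.2% of the CaCo-2 genes). For 336 of those 680 genes no transcript was in common, so the lists held different isoforms of the gene.

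Of the 376, 348 passed the 1 FPKM filter in both lines, and 78 of these (22.4%) were at least 2-fold higher in both RIPs, beside 30.0% of all shared transcripts. Another 104 were at least 2-fold higher in HT-29 alone, 38 in CaCo-2 alone and 128 in neither. Of the 78, 29 had an input at 0 in both lines, 27 in 1 line, and 22 had an input above 0 in both. Across the 348 transcripts the ratios of the lines had a Spearman rho of 0.23 and the RIP levels 0.36, a description of points that share genes and the listing limit.

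The shared transcripts with the highest lower ratio were RPL8, both STT3A isoforms, GRINA, PDCD5, EIF3J, IPO7, MED28, IRF9 and TPM3. GRINA had 5.55 FPKM in RIP RNA of HT-29 against 0 in its input, and 10.1 FPKM in RIP RNA of CaCo-2 against 0 in its input (chr8:145066342-145067142). The apoptosis-associated PDCD5 had 5.69 FPKM in RIP RNA of HT-29 against 0 in its input, and 5.47 FPKM in RIP RNA of CaCo-2 against 0 in its input. STT3A isoform ENST00000526213 had 6.58 FPKM in RIP RNA of HT-29 and 7.47 FPKM in RIP RNA of CaCo-2, with 0 in both inputs. All 3 isoforms had both inputs listed at 0, and the RIP levels of PDCD5 and STT3A lay close together while that of GRINA was higher in CaCo-2, by values normalised separately. The second STT3A isoform, ENST00000524639, had 10.1 FPKM in RIP RNA of HT-29 against 0.0196 in its input, and 16.7 FPKM in RIP RNA of CaCo-2 against 3.56 in its input. IPO7 had 10.4 FPKM in RIP RNA of HT-29 against 0 in its input, and 10.2 FPKM in RIP RNA of CaCo-2 against 1.59 in its input. This STT3A isoform and IPO7 thus had an HT-29 input at or near 0 and a CaCo-2 input of over 1 FPKM.

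With at least 1 FPKM in all 4 libraries, 52 shared transcripts remained, and 7 of them were at least 2-fold higher in both RIPs. They came from EIF3B and EIF4A1 and EIF4A2 (translation initiation), RPL13A (a ribosomal protein), IGF2BP3 (an RNA-binding protein of fetal tissue and tumours), UCP2 (a mitochondrial carrier) and PKP4 (a plakophilin of cell junctions). EIF3B had 8.25 FPKM in RIP RNA of HT-29 against 1.53 in its input, and 8.61 FPKM in RIP RNA of CaCo-2 against 2.64 in its input. UCP2 had 8.86 FPKM in RIP RNA of HT-29 against 3.38 in its input, and 9.41 FPKM in RIP RNA of CaCo-2 against 2.70 in its input. IGF2BP3 had 5.91 FPKM in RIP RNA of HT-29 against 1.44 in its input, and 6.12 FPKM in RIP RNA of CaCo-2 against 1.98 in its input. In all 7 transcripts both RIP levels lay above both input levels, which their selection as at least 2-fold higher in both lines favoured. RPL13A had 17.3 FPKM in RIP RNA of HT-29 against 2.30 in its input, and 4.80 FPKM in RIP RNA of CaCo-2 against 1.46 in its input. PKP4 had 3.99 FPKM in RIP RNA of HT-29 against 1.29 in its input, and 5.09 FPKM in RIP RNA of CaCo-2 against 1.99 in its input. In these 52 the RIP levels of the lines had a rho of 0.63 and the ratios 0.35. EEF1A1 stood apart from this likeness, with 2.04 FPKM in the HT-29 input and 14.9 FPKM in the CaCo-2 input, and log2 ratios of 3.38 and 0.57.

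**Figure D3:**
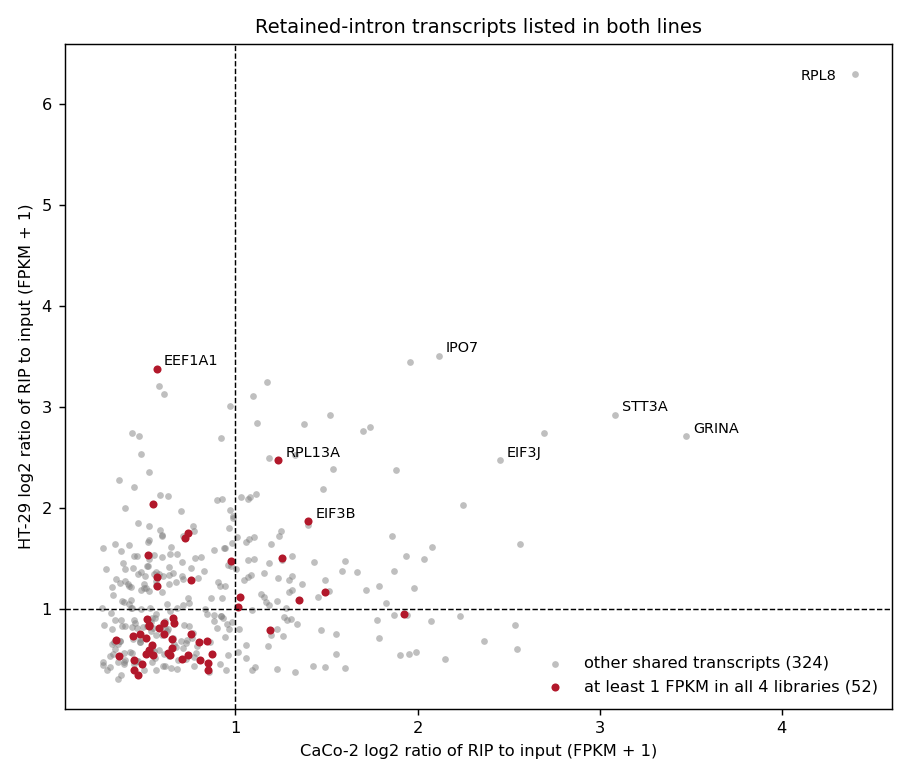
Log2 ratio of RIP to input in HT-29 (vertical) against CaCo-2 (horizontal) for the 376 retained-intron transcripts listed in both lines, with the 52 that had at least 1 FPKM in all 4 libraries in red and dashed lines at 2-fold. RPL8 lies alone at the upper right (6.29 and 4.40), and most red points lie below 2-fold in 1 line or both.

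Most genes contributed a single member, 80.4% of the genes in HT-29 cells and 76.0% in CaCo-2. CCNL1, the cyclin L1 that takes part in splicing regulation, contributed the most, 8 transcripts in each line, 13 different ones and 3 shared (chr3:156865584-156877947 over all). In HT-29 they ran from 1.81 to 6.12 FPKM in the RIP and from 0 to 2.03 FPKM in the input, and 3 of the 8 were at least 2-fold higher. In CaCo-2 they ran from 0.912 to 5.21 FPKM in the RIP and from 0 to 1.80 FPKM in the input, and 2 of the 6 that passed were at least 2-fold higher. The RIP and input ranges of CCNL1 isoforms overlapped in both lines.

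EIF4A1, the helicase subunit of the cap-binding complex and a snoRNA host, had 7 members in HT-29 cells and 4 in CaCo-2, and all 4 were among the 7. In HT-29 6 of 7 were at least 2-fold higher, with 1.86 to 6.54 FPKM in the RIP and 0 to 2.70 FPKM in the input. In CaCo-2 2 of the 3 that passed were, with 0.891 to 4.01 FPKM in the RIP and 0 to 1.48 FPKM in the input over all 4. GAS5, a non-coding snoRNA host, had 3 members in HT-29 (4.52 to 6.08 FPKM in the RIP, 1.54 to 3.74 FPKM in the input) and 6 in CaCo-2 (1.23 to 3.97 FPKM in the RIP, 0 to 0.251 FPKM in the input). For GAS5 the RIP ranges lay above the input ranges in both lines, with 1 of 3 at least 2-fold higher in HT-29 cells and 6 of 6 in CaCo-2, 5 of those 6 with input at 0.

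HNRNPH1, a regulator of splicing, had 5 members in HT-29, up to 16.3 FPKM in the RIP and 7.02 in the input, with 2 of 5 at least 2-fold higher. In CaCo-2 it had 3, up to 13.7 FPKM in the RIP and 7.42 in the input, with 0 of the 2 that passed. ACADVL (a fatty acid dehydrogenase) had 5 members in HT-29 cells and 4 in CaCo-2, with 4 of 5 and 0 of 3 at least 2-fold higher. SRRT (the RNA effector ARS2) had 4 members in each line, with 3 of 4 and 0 of 4 at least 2-fold higher. Both genes thus gave 2-fold members in HT-29 and none in CaCo-2, where the share over all transcripts was also lower. The HT-29 inputs of these members were at most 0.928 FPKM for ACADVL and 0.906 FPKM for SRRT, with 3 and 1 listed at 0. FLII, CPSF3L (now INTS11, the Integrator endonuclease), DAK (now TKFC) and EIF4A2 completed the 10 genes with the most members, with 7 or 8 each over both lines.

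**Figure D4:**
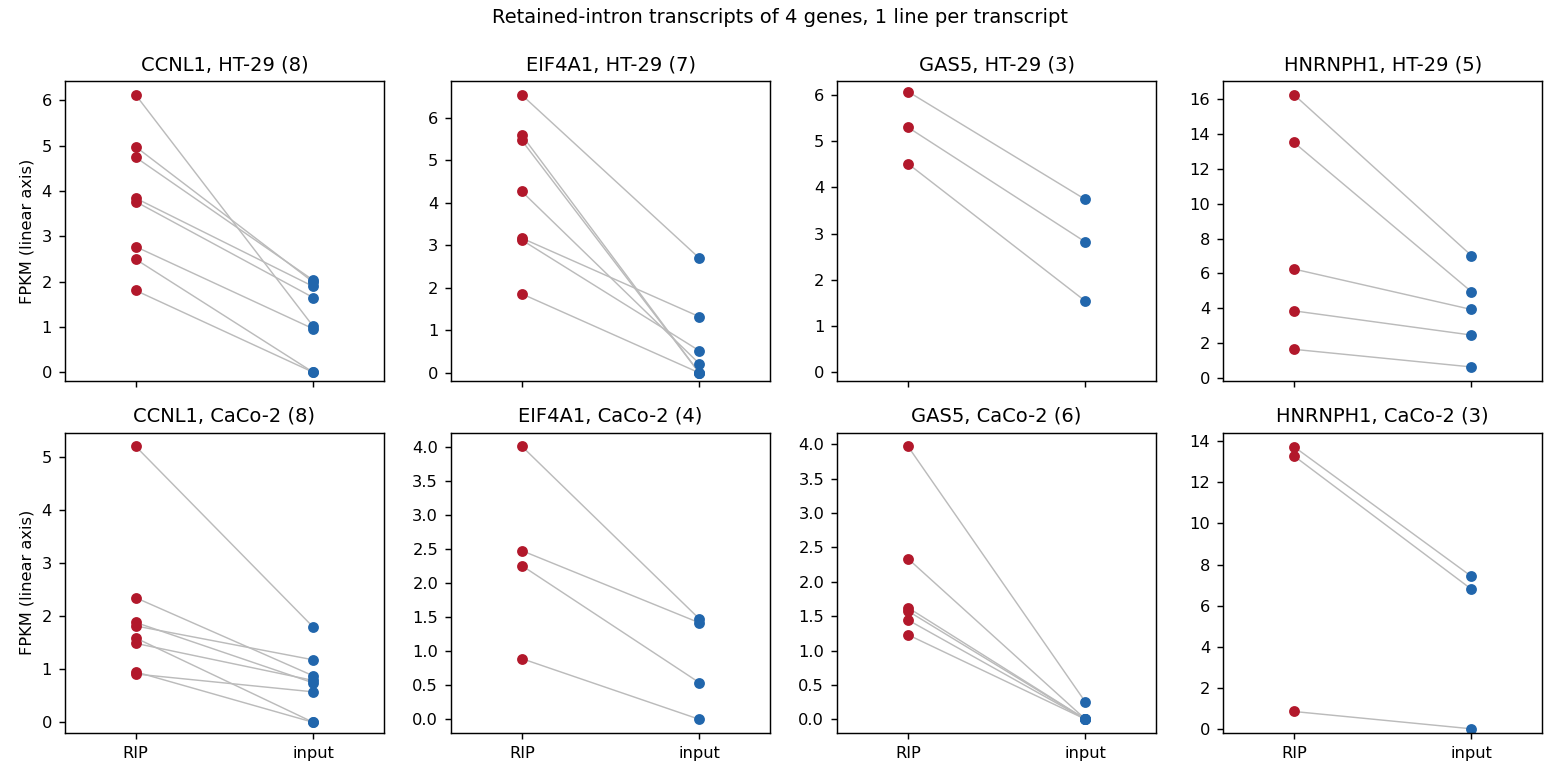
FPKM (vertical, linear axes that differ between panels) of each retained-intron transcript of CCNL1, EIF4A1, GAS5 and HNRNPH1 in the RIP (left in each panel) and the input (right), HT-29 above and CaCo-2 below, with a line joining the values of a transcript. Every line slopes down to the input by the selection of the lists, and GAS5 in CaCo-2 has 5 of its 6 inputs at 0.

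Translation factors, which load and move the ribosome, had high ratios in HT-29. They had 35 members there from 20 genes, of which 26 (74.3%) were at least 2-fold higher, beside 52.0% of retained-intron and 56.0% of all transcripts, with a median log2 ratio of 1.30 beside 1.04 over all retained-intron transcripts. Where RIP and input each reached 1 FPKM, 8 of 11 were, beside 22.4% of retained-intron and 25.2% of all transcripts. Without inputs at 0 16 of 25 were, beside 31.3% and 35.5%. In CaCo-2 there were also 35, from 22 genes, with a median of 0.83 beside 0.72. There 10 of the 28 that passed (35.7%) were at least 2-fold higher, beside 40.8% of all transcripts. In 15 cases the transcript was shared. No interaction between line and group was tested. EIF3M, another eIF3 subunit, had 22.3 FPKM in RIP RNA of HT-29 against 4.90 in its input. EIF3J, which helps eIF3 bind the small subunit, had 12.4 FPKM in RIP RNA of HT-29 against 1.41 in its input, and 4.47 FPKM in RIP RNA of CaCo-2 against 0 in its input. A second EEF1A1 isoform, ENST00000490569, listed as retained-intron in CaCo-2, had 14.1 FPKM in the RIP and 4.80 in the input. The protein-coding translation factor transcripts of HT-29 had 27 of 48 at least 2-fold higher and a median log2 ratio of 1.14.

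Cytosolic ribosomal proteins had 49 members in HT-29 cells and 33 in CaCo-2. The 2-fold counts were 23 of 49 (46.9%) and 9 of the 29 that passed (31.0%), beside 56.0% and 40.8% of all transcripts. Their medians, 0.92 and 0.62, were below those of all members, 1.04 and 0.72, although they supplied the highest levels. RPS2 had 39.3 FPKM in RIP RNA of HT-29 against 11.2 in its input. RPL4 had 38.7 FPKM in RIP RNA of HT-29 against 10.9 in its input. RPL10 had 16.2 FPKM in RIP RNA of CaCo-2 against 9.38 in its input. Ribosomal protein genes have many processed pseudogenes, to which reads can also map, so these levels are uncertain. Mitochondrial ribosomal proteins had only 6 members in HT-29 cells and 5 in CaCo-2, 10.2% and 8.93% of the group's listed transcripts, beside 17.0% and 22.7% over all genes. The highest in HT-29 was MRPL38, at 2.18 FPKM in the RIP and 0 in the input.

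Spliceosome proteins, with a few splicing-associated ones such as SRRT, SON and SRRM2 in the list, had 24 HT-29 members and 25 CaCo-2 members. Of these, 12 of 24 and 9 of the 23 that passed were at least 2-fold higher, beside 56.0% and 40.8% of all transcripts. Their median log2 ratios were 0.98 and 0.77, beside 1.04 and 0.72 over all members. Inputs were listed at 0 for 3 HT-29 members and 9 CaCo-2 members. Where RIP and input each reached 1 FPKM, 4 of 8 and 0 of 8 were at least 2-fold higher, beside 25.2% and 13.1% of all transcripts. SRRM2, a scaffold of nuclear speckles, had 11.0 FPKM in RIP RNA of HT-29 against 4.70 in its input. SNRNP70, the U1 70K protein, had 8.54 FPKM in RIP RNA of HT-29 against 0 in its input. SF3A2, a U2 protein, had 7.13 FPKM in RIP RNA of CaCo-2 against 3.58 in its input. The spliceosome group made up 36.4% retained-intron transcripts in HT-29 cells and 36.8% in CaCo-2, above the 17.0% and 22.7% of all listed transcripts, without a test of that difference.

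The hnRNP proteins, which coat nascent transcripts, had 11 members in each line, 5 of 11 and 3 of the 9 that passed being at least 2-fold higher, with medians of 0.70 and 0.81. HNRNPU had 16.3 FPKM in RIP RNA of HT-29 against 4.97 in its input. HNRNPL had 12.1 FPKM in RIP RNA of CaCo-2 against 3.74 in its input. SR proteins, which mark exons for splicing, had 7 members in HT-29 (3 at least 2-fold higher) and 3 in CaCo-2 (1 at least 2-fold higher). The 2-fold shares were 45.5% and 33.3% for hnRNP members and 42.9% and 33.3% for SR ones, beside 56.0% and 40.8% of all transcripts. The SRSF2 transcript ENST00000582449 had 11.0 FPKM in RIP RNA of HT-29 against 4.28 in its input, and SRSF10, the SR protein with a shared member, had 6.60 FPKM in RIP RNA of HT-29 against 3.85 in its input, and 2.08 FPKM in RIP RNA of CaCo-2 against 0.479 in its input.

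The kinases that phosphorylate SR proteins had 5 members in HT-29 cells and 4 in CaCo-2, none above 2.23 FPKM in the RIP. In HT-29 4 of 5 were at least 2-fold higher, with a median log2 ratio of 1.36, but 4 of the 5 inputs were listed at 0, and in CaCo-2 1 of the 3 that passed was at least 2-fold higher. CLK1, whose introns are known to be detained in the nucleus, gave both shared ones, ENST00000461326 at 2.23 FPKM in RIP RNA of HT-29 against 0 in its input, and 1.11 FPKM in RIP RNA of CaCo-2 against 0 in its input. Its other shared isoform, ENST00000496205, had 2.18 FPKM in RIP RNA of HT-29 against 0 in its input, and 0.861 FPKM in RIP RNA of CaCo-2 against 0.299 in its input. Over the genes known for detained introns, 4 of 6 members in HT-29 cells and 3 of 6 that passed in CaCo-2 were at least 2-fold higher. All listed transcripts had shares of 56.0% and 40.8%. However, 3 inputs of these members were listed at 0 in each line. Where RIP and input each reached 1 FPKM, 1 of 3 HT-29 members and 0 of 1 CaCo-2 members were at least 2-fold higher. Among these genes, DDX5, an RNA helicase, had 10.4 FPKM in RIP RNA of HT-29 against 4.14 in its input. RNA helicases as a group had 18 members in each line, with 8 of 18 (44.4%) and 6 of the 15 that passed (40.0%) at least 2-fold higher. The shares over all transcripts were 56.0% in HT-29 and 40.8% in CaCo-2.

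**Figure D5:**
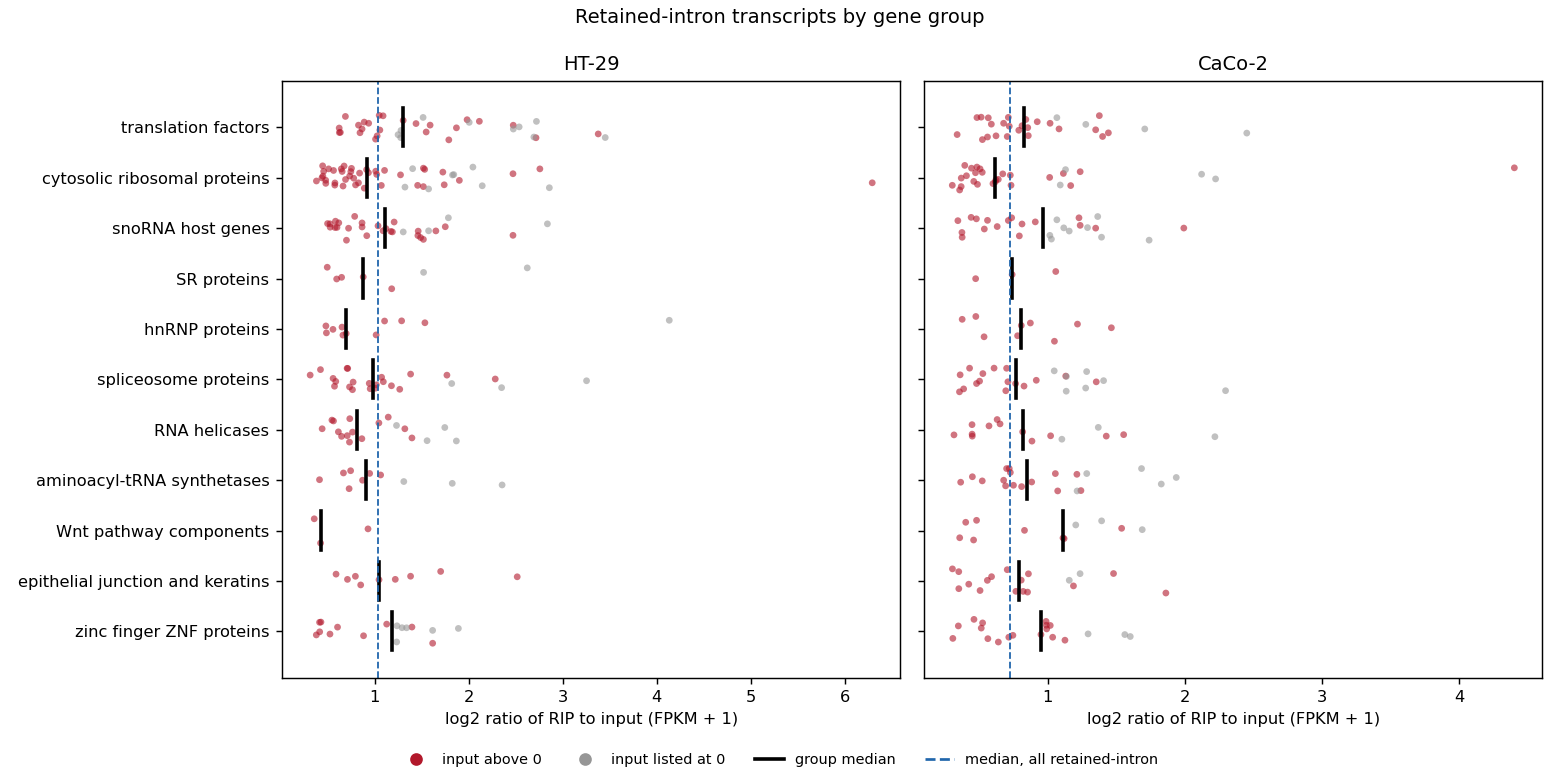
Log2 ratio of RIP to input (horizontal) of the retained-intron transcripts of 11 gene groups that passed the 1 FPKM filter, HT-29 left and CaCo-2 right on axes of different length, 1 point per transcript, with group medians as black bars and the median of all retained-intron transcripts as a dashed line. Translation factors in HT-29 sit to the right of the line (1.30 beside 1.04). Points with an input listed at 0 are grey and are not present in every group.

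Genes that carry snoRNAs in their introns, which release the snoRNA when the intron is spliced and trimmed, had 30 members in HT-29 cells and 27 in CaCo-2. In HT-29 17 of 30 and in CaCo-2 13 of the 26 that passed were at least 2-fold higher, with medians of 1.11 and 0.96. The shares over all transcripts were 56.0% and 40.8%, and 4 and 9 inputs of the members were listed at 0. Where RIP and input each reached 1 FPKM, 8 of 21 and 2 of 12 were at least 2-fold higher, beside 25.2% and 13.1%. Retained-intron transcripts made up 39.5% and 40.9% of these genes' listed transcripts. Over all genes they made up 17.0% and 22.7%, without a test of either difference. A snoRNA that was itself listed in either line lay wholly inside 18 members from 13 genes in HT-29 cells and 16 members from 12 genes in CaCo-2, on the same strand except for the CaCo-2 member of RAP1B. Members with a snoRNA inside had a median of 4.12 FPKM in RIP RNA of HT-29, beside 2.09 FPKM for those without, and median log2 ratios of 1.12 and 1.03. In CaCo-2 the RIP medians were 2.22 and 1.64 FPKM and the ratios 0.77 and 0.72. Input medians with and without a snoRNA inside were 1.21 and 0.559 FPKM in HT-29, and 0.830 and 0.612 FPKM in CaCo-2. The medians of members with a snoRNA inside were thus higher in both libraries. These members were few, and some were isoforms of the same gene, such as GAS5.

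The snoRNA values were much higher than those of the transcripts around them. SNORD78, in GAS5, had 21225 FPKM in RIP RNA of HT-29 against 0 in its input, whereas the GAS5 members ran from 4.52 to 6.08 FPKM in the RIP. SNORA31 in TPT1 had 5214 FPKM in RIP RNA of HT-29 against 351 in its input, and the TPT1 member 7.07 FPKM in the RIP and 4.71 in the input. SNORA26 in DANCR had 284 FPKM in RIP RNA of CaCo-2 against 39.6 in its input, and the DANCR member 7.11 FPKM in the RIP and 1.84 in the input. These examples were chosen after their values were seen. The same value of 4811 FPKM was listed for SNORD20 in NCL and for a GAS5 snoRNA in HT-29, so such levels may stand for few fragments, and how snoRNA reads were assigned to the surrounding transcript was not tested.

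Aminoacyl-tRNA synthetases, which charge tRNAs, had 10 members in HT-29 cells and 24 in CaCo-2, where they were 48.0% of the group's listed transcripts, beside 24.4% in HT-29. In HT-29 4 of 10 (40.0%) and in CaCo-2 9 of the 20 that passed (45.0%) were at least 2-fold higher. RARS (arginine) had 11.0 FPKM in RIP RNA of HT-29 against 4.76 in its input, and the same isoform had 2.55 FPKM in RIP RNA of CaCo-2 against 0 in its input. Proteasome subunits had 17 members in each line, with 8 of 17 (47.1%) and 7 of the 15 that passed (46.7%) at least 2-fold higher. Both groups stood beside 56.0% and 40.8% of all transcripts, and 7 of the 17 CaCo-2 proteasome inputs were listed at 0. PSMD11 had 9.63 FPKM in RIP RNA of HT-29 against 4.92 in its input, and 4.80 FPKM in RIP RNA of CaCo-2 against 0 in its input.

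Genes of folding and transport in the endoplasmic reticulum had 11 members in HT-29 cells and 16 in CaCo-2. The 2-fold counts were 8 of 11 (72.7%) and 7 of the 15 that passed (46.7%), beside 56.0% and 40.8% of all transcripts. The HT-29 median log2 ratio was 1.61, but 6 of the 11 inputs were listed at 0 and 0 of 11 members reached 1 FPKM in both libraries. SSR3, a subunit of the translocon-associated complex, was shared, with 3.68 FPKM in RIP RNA of HT-29 against 0.316 in its input, and 3.94 FPKM in RIP RNA of CaCo-2 against 0.878 in its input.

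Chromatin regulators had 20 members in HT-29 cells and 42 in CaCo-2, with 11 of 20 and 9 of the 36 that passed at least 2-fold higher. All listed transcripts had shares of 56.0% and 40.8%, so the share of chromatin regulators was below them in both lines, by more in CaCo-2. The bromodomain protein BRD2 led in HT-29 with 13.2 FPKM in the RIP and 8.40 in the input. CHD2, a chromatin remodeller, was shared, with 6.13 FPKM in RIP RNA of HT-29 against 0 in its input, and 4.20 FPKM in RIP RNA of CaCo-2 against 1.01 in its input. Zinc finger ZNF proteins, one of the largest gene families, had only 16 members in HT-29 cells and 25 in CaCo-2, 11.1% and 13.6% of the family's listed transcripts. Their 2-fold counts were 9 of 16 (56.25%) and 6 of the 19 that passed (31.6%), beside 56.0% and 40.8% of all transcripts.

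Components of the Wnt pathway, in which beta-catenin acts, had 3 members in HT-29, from CSNK1E, CSNK1D and TLE4, with 0 of 3 at least 2-fold higher. In CaCo-2 they had 16 members from 8 genes. Of the 11 that passed 6 (54.5%) were at least 2-fold higher, beside 32.0% of retained-intron and 40.8% of all transcripts. However, 5 of the 16 inputs were listed at 0, and of the 3 members with 1 FPKM in both libraries 1 was at least 2-fold higher. Retained-intron transcripts were 11.1% of the pathway's listed transcripts in HT-29 and 28.1% in CaCo-2, beside 17.0% and 22.7% over all genes, without a test of either difference. CSNK1D, a casein kinase of the pathway, had 5.37 FPKM in RIP RNA of CaCo-2 against 1.19 in its input (ENST00000579316), and a different isoform had 1.66 FPKM in RIP RNA of HT-29 against 1.08 in its input. DVL2, a Dishevelled protein, had 2.22 FPKM in RIP RNA of CaCo-2 against 0 in its input. No Wnt component transcript was shared between the lines. Of Wnt target genes 2 members were listed in HT-29 cells and 4 in CaCo-2, among them cyclin D1 (CCND1) at 2.30 FPKM in the RIP and 1.35 in the input of HT-29, and 6.48 FPKM in the RIP and 4.30 in the input of CaCo-2, by different isoforms. Both CCND1 isoforms were below 2-fold, and 1 member was at least 2-fold higher in each line, TDGF1 in HT-29 and TCF7 in CaCo-2.

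Epithelial junction and keratin genes had 9 members in HT-29 cells and 20 in CaCo-2. The 2-fold counts were 5 of 9 (55.6%) and 5 of the 18 that passed (27.8%), beside 56.0% and 40.8% of all transcripts. KRT18 led in HT-29 with 32.5 FPKM in the RIP and 17.5 in the input. KRT8, its partner keratin, was shared, with isoform ENST00000549176 at 5.79 FPKM in RIP RNA of HT-29 against 2.91 in its input, and 6.61 FPKM in RIP RNA of CaCo-2 against 2.34 in its input. ITGB4, an integrin of hemidesmosomes, had 10.4 FPKM in RIP RNA of HT-29 against 3.39 in its input, a log2 ratio of 1.38. CTNNB1 itself had 1 retained-intron transcript, listed in CaCo-2 alone at 0.896 FPKM in the RIP and 0.438 in the input, below the filter.

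Retained-intron and protein-coding transcripts were also set side by side within a gene, taking for each class the transcript of highest RIP level. In HT-29, of 626 genes with both, the retained-intron transcript had the higher log2 ratio in 283 and the lower in 343, with a median difference of -0.08 (quartiles -0.63 and 0.39). In CaCo-2, of 747 genes, it was higher in 283 and lower in 464, with a median difference of -0.15 (quartiles -0.58 and 0.22). The spread between genes was several times the median in both lines, and in HT-29 the sign turned with a pseudocount of 0.1 (0.024). The retained-intron transcript had the higher RIP level in 33.1% of these genes in HT-29 cells and 39.8% in CaCo-2. Genes are not replicates, and isoforms of a gene share reads. For 539 genes in HT-29 (40.6%) and 859 in CaCo-2 (41.9%) no transcript of another class was listed beside the retained-intron one.

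Members were short in genomic span, with a median of 3246 nucleotides in HT-29 cells and 3194.5 in CaCo-2, against 17854.5 and 19115.5 for protein-coding transcripts. In HT-29 the share at least 2-fold higher was 55.6% for spans under 1000 nucleotides and 41.5% for spans of 20000 or more. In CaCo-2 the shares were 34.7% and 27.5%. Of members lying wholly inside the combined span of their gene's protein-coding transcripts listed in either line, 739 in HT-29 cells and 1031 in CaCo-2, the midpoint fell in the 5′, the middle and the 3′ of 3 equal parts in 25.6%, 37.3% and 37.1% of cases in HT-29. In CaCo-2 it did so in 25.8%, 34.6% and 39.6%. The 5′ part thus held the fewest in both lines, and median log2 ratios differed little between the parts, from 0.97 to 1.05 in HT-29 and from 0.68 to 0.76 in CaCo-2.

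The share of listed transcripts that were classed as retained-intron varied by chromosome. Among the autosomes and X, it ran from 6.41% on X to 23.9% on chromosome 16 in HT-29, and from 10.2% on chromosome 10 to 31.3% on chromosome 16 in CaCo-2. The class processed_transcript, for gene transcripts with no coding sequence that were given no other class, ran the other way. On chromosome 13 of HT-29 6.88% of transcripts were retained-intron and 35.0% processed, whereas on chromosome 16 23.9% were retained-intron and 9.68% processed. On chromosome 1 of CaCo-2 14.4% were retained-intron and 31.1% processed, whereas on chromosome 17 30.7% were retained-intron and 9.06% processed. The sum of both classes ran from 24.4% to 41.9% in HT-29 and from 30.4% to 45.6% in CaCo-2, a narrower relative range than that of retained-intron alone. A gene group's share of retained-intron members may thus differ with the chromosomes of its genes, and the part of the annotation in these shares was not tested.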

How the data were processed

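RNA from beta-catenin RIP and from input was measured in HT-29 and CaCo-2 cells, 1 library each. Per the submitters' processing notes, CASAVA 1.4, Bowtie2, TopHat2 2.0.8, Cufflinks and Cuffdiff were used with hg19; the sources used here give no strandedness, depth or other versions. Per the file headers, each deposited table has 1 row per Ensembl transcript with FPKM of both libraries, which the authors normalised. The p-values and q-values were deposited by the authors from 1 library per side and are quoted as theirs. The deposited log2 fold column holds a placeholder where the input is 0 and was replaced by the ratio computed here, with a pseudocount of 1. The deposited coordinates were turned into positions counted from 1. Columns of per-sample values without a sample numbered 0.

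Members were taken by the deposited class. Named transcripts were, per line, the 10 highest by ratio, by RIP level and by ratio with 1 FPKM in both libraries, those with q at or below 0.05, the 10 highest shared ones by the lower ratio (also with 1 FPKM in all libraries), the 10 genes with most members, up to 4 per gene group, and CTNNB1, RBM5 and RBM6. One transcript that the q rule names is not reported here. Members, lists and rules were chosen with earlier results of these data known. Of 1328 gene names in HT-29, 1236 are current RefSeq symbols and 80 older ones; of 2048 in CaCo-2, 1902 and 126. Alternatives were other pseudocounts, filters and folds, inputs at 0 left out and 1 transcript per gene, and, chosen after seeing the data, RIP at least 2 FPKM. Scripts were tested on simulated data and used Python 3.11.15, pandas 2.3.3, numpy 2.4.6, scipy 1.17.1 and matplotlib 3.10.9.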

Additional observations from a re-analysis of the deposited data

How the results depend on the processing

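No paired analysis was possible because the results come from no test: each group had 1 library, the lines were normalised separately, and the lists hold only transcripts already selected as higher in the RIP. Over 45 computed alternatives 18 stayed within a set band around the value reported, 26 moved outside it and 1 turned its sign. For counts this band was wide. Of the counts at least 2-fold higher, it took in 1274 for 875 in HT-29 with a pseudocount of 0.1. It also took in 1065 for 732 in CaCo-2 with a pseudocount of 0.5. The cause of a move was not tested where it does not follow from testing fewer transcripts. The same-gene difference between retained-intron and protein-coding transcripts turned in HT-29, to 0.024 with a pseudocount of 0.1, and in CaCo-2 it was -0.11 with 1 FPKM in both libraries. The count at least 2-fold higher in HT-29, 875, was 104 with 1 FPKM in both libraries, 368 without inputs at 0, 530 with RIP at least 2 FPKM and 123 at 4-fold. In CaCo-2, 732 became 45, 237, 296 and 40 under the same settings and 1436 with a pseudocount of 0.1. The median log2 ratio, 1.04 in HT-29 and 0.72 in CaCo-2, was 1.77 and 1.25 with a pseudocount of 0.1, 0.69 and 0.57 with 1 FPKM in both libraries, 0.80 and 0.61 without inputs at 0, and 1.13 and 0.84 with RIP at least 2 FPKM. With that last floor, chosen after seeing the data, the retained-intron share of the lists was 14.5% and 19.3%. The 376 shared transcripts became 680 by gene name, 52 with 1 FPKM in all libraries, 231 without inputs at 0 and 124 with RIP at least 2 FPKM. Depth is unknown, so the fragments behind low FPKM are too.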
